A study of Mus musculus with 18 samples.

Results

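The inhibitory checkpoint transcripts on the panel were those of Pdcd1, Cd274, Pdcd1lg2, Lag3 and Ctla4, 5 of 768 panel genes, taken by symbol. All 5 were measured in all 18 tumor samples, at levels that differed between them: Lag3 stood above the background limit in 18 samples, Cd274 in 17, Pdcd1 in 10, Pdcd1lg2 in 6 and Ctla4 in 2. With both dendritic cells and the antibody, all 5 were called higher than in controls in the treated tumor, where 35.4% of the panel was. In the untreated tumor 4 were called higher, where 15.8% of the panel was. The treated calls of Lag3 and Ctla4 were lost in a fit of only the groups compared. The treated controls were below the limit for Pdcd1lg2 and Ctla4. All 4 untreated calls were lost without 1 control sample, and that of Ctla4 rested on values below the limit.

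Immune checkpoints are receptors that dampen T cells, together with their ligands. PD-1, encoded by Pdcd1, is induced on T cells by antigen and, once bound by PD-L1 (Cd274) or PD-L2 (Pdcd1lg2), recruits phosphatases that blunt signaling from the T cell receptor and CD28. PD-L1 is made by tumor cells and many leukocytes, mainly under interferon gamma, whereas PD-L2 is largely a product of dendritic cells and macrophages. LAG-3 binds MHC class II molecules, and CTLA-4 competes with CD28 for the ligands CD80 and CD86.

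Tumors of TUBO, a breast cancer line of BALB/c origin that overexpresses HER2/neu, were carried by female BALB/c mice. The arms were the combination of HER2 DC1 dendritic cells, placed into the tumor, with an antibody that blocks semaphorin 4D, then HER2 DC1 alone, anti-semaphorin 4D alone, and the untreated control. Each arm had tumors labelled treated and tumors labelled untreated, which gave 8 groups, with 3 samples in each combination group and 2 in each other group. Treatment lasted 3 weeks, and all mice were killed at 1 time point. Animal age, whether samples came from separate mice, and which tumor of a control mouse counts as treated are not stated in the labels. The p-values therefore measure the spread between these samples, which may be technical. None of the 5 listed epithelial markers was measured, so the labelled tissue could not be checked by them.

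RNA was counted on a NanoString nCounter metabolism panel, which tallies fluorescent barcodes on single molecules without amplification. Levels are given as log2(count + 1), as deposited, and panel counts per sample ran between 203574 and 989393 before scaling. Each sample has its own background limit, the mean plus 2 SD of its 8 negative probes on the scale of the panel genes, which fell between 4.95 and 5.84. The deposited columns came in 2 kinds, 12 scaled and 6 of whole numbers, and all 6 combination samples were of the scaled kind. Differences were tested with limma over all 768 genes, with 1 mean per group, and a gene was called at a Benjamini-Hochberg adjusted p under 0.05.

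Pdcd1 lies on chr1:94038305-94052553, Ctla4 on chr1:60909025-60915832 and Lag3 on chr6:124904359-124912434, all by RefSeq on GRCm38.p6. The ligand genes are neighbors on chromosome 19, Cd274 at chr19:29362107-29388095 and Pdcd1lg2 at chr19:29410919-29472927, 22.8 kb apart. The promoters of the PD-1 receptor and its 2 ligands are shown, each with 250 bases before and 50 from the annotated start. Over the 18 samples these transcripts did not stand apart, as Pdcd1 correlated at 0.912 with Cd274 and at 0.952 with Lag3. In the 12 samples outside the combination these correlations were 0.627 and 0.389. The window of Ctla4 was searched but is not shown, and none was at hand for Lag3. Capitals mark AANNGAAA, a core of sites for interferon regulatory factors (IRF), and in Pdcd1lg2 also an NF-kB site. The windows are chr1:94052504-94052803 (minus strand), chr19:29367188-29367487 and chr19:29410669-29410968 (plus strand), and that of Cd274 lies inside the span given for the gene.
Pdcd1: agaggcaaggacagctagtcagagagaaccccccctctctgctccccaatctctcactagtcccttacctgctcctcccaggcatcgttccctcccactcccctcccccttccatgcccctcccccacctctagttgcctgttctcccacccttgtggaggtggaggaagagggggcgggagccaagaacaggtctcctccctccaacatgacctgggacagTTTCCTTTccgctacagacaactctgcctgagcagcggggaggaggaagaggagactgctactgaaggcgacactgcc
Cd274: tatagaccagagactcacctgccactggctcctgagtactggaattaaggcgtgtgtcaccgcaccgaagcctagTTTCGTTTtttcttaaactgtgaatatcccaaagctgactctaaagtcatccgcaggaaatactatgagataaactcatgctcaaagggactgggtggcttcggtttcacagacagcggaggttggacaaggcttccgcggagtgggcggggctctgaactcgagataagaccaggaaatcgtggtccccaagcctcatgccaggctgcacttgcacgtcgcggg
Pdcd1lg2: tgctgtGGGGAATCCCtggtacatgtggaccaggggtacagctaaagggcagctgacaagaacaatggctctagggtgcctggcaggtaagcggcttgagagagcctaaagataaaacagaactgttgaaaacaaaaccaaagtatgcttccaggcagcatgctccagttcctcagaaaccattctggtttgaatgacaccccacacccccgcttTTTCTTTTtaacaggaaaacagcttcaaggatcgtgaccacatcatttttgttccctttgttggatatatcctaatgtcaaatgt

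In all, 7 motifs were searched on both strands of these windows and that of Ctla4. The first 5 were the full IRF site, the STAT site TTCNNNGAA, a strict NF-kB site, the AP-1 site TGACTCA and the TATA box TATAAA, of which only TATAAA was found, in Ctla4 from base 41 to base 46. The other 2, the IRF core and a degenerate NF-kB consensus, are looser forms that contain the full sites. They were added after those gave no match and the sequences had been read. The IRF core was found on the minus strand, from base -28 to -21 in Pdcd1, from -175 to -168 in Cd274 and from -35 to -28 in Pdcd1lg2, and not in Ctla4. The degenerate NF-kB consensus was found from base -244 to -235 in Pdcd1lg2. Of 32851 promoter windows of that length, 23.9% held the IRF core, 8.46% the degenerate NF-kB consensus and 13.6% TATAAA. The first-searched forms were in 3.44% of windows for IRF, 8.30% for STAT, 0.155% for NF-kB and 5.20% for AP-1. These matches describe letters and are not evidence of binding.

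Pdcd1, the PD-1 receptor, was 6.89, 9.27 and 8.08 in the 3 treated combination tumors, against 5.43 and 5.22 in the treated controls. Every combination sample lay above both controls, which stood just above their limits. The mean was 8.08 ± 1.19 (SD, n = 3) in the combination and 5.32 ± 0.15 (n = 2) in controls, a difference of 2.76 ± 0.57 (SE) on the log2 scale, 6.78-fold, with an adjusted p of 0.00402. In bulk tumor RNA, more cells of a type and more RNA per cell cannot be told apart. Untreated tumors had Pdcd1 at 6.10, 7.11 and 7.87 in the combination arm, against 4.81 and 5.40 in controls. The groups again did not overlap, and both controls were below the limit. The difference there was 1.92 ± 0.57 (SE), at least 2.69-fold, with an adjusted p of 0.0394, and the call was lost when any of 11 of the 18 samples was left out in turn, untreated control 2 among them (adjusted p = 0.158).

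Pdcd1 in the other arms was 5.81 and 5.39 with DC1, 4.86 and 5.09 with anti-semaphorin 4D in the treated tumor. Its untreated-tumor values were 5.75 and 5.32 with DC1, and 5.23 and 5.25 with anti-semaphorin 4D. Only 1 DC1 sample of each kind exceeded its limit, and no antibody sample did. By mean level the order began with treated and then untreated combination, whose samples overlapped, and the other 6 groups followed with means between 5.6 and 4.97, each overlapping its neighbor.

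Cd274, which encodes PD-L1, was 8.31, 10.58 and 9.61 in treated combination tumors, against 6.04 and 6.10 in treated controls. The difference was 3.43 ± 0.55 (SE), 10.8-fold, with an adjusted p of 0.00169. Untreated tumors had Cd274 at 7.85, 9.19 and 9.23 in the combination, against 6.09 and 5.65 in controls. Neither kind of tumor had overlapping groups. The untreated difference was 2.89 ± 0.55 (SE), 7.40-fold, with an adjusted p of 0.00869, which became 0.128 without untreated control 2.

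With dendritic cells alone Cd274 was 8.13 and 8.15 in treated DC1 tumors, against the control values above, a difference of 2.07 ± 0.60 (SE), 4.19-fold. Untreated DC1 tumors had 7.51 and 6.97, 1.37 ± 0.60 (SE) above controls, 2.58-fold. DC1 and control samples did not overlap in either kind of tumor, yet neither difference passed (adjusted p = 0.288 in the treated and 0.516 in the untreated tumor; unadjusted p = 0.0045 and 0.0408). With anti-semaphorin 4D alone Cd274 was 5.92 and 6.52 in the treated and 5.69 and 6.30 in the untreated tumor, overlapping the controls in both.

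Pdcd1lg2, which encodes PD-L2, had the widest range of the 5, between 2.62 and 11.63. It was 7.74, 11.63 and 9.45 in treated combination tumors, against 3.58 and 3.52 in treated controls. Both controls were below the limit, so the fitted difference of 6.05 ± 0.89 (SE; adjusted p = 0.000992) corresponds to at least 21.4-fold. Its untreated-tumor values were 4.88, 6.79 and 7.05 in the combination, against 3.46 and 2.62 in controls. The first of those combination samples and both controls were below the limit. The difference was 3.2 ± 0.89 (SE), at least 1.56-fold, with an adjusted p of 0.0324. The call was lost without either untreated control or without untreated combination 2 or 3, with an adjusted p of up to 0.233 (without control 2).

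Pdcd1lg2 with DC1 alone was 6.32 and 5.17 in the treated and 4.84 and 3.70 in the untreated tumor, with only the first of these above its limit. The treated difference from controls was 2.19 ± 0.98 (SE), at least 1.48-fold, and did not pass (adjusted p = 0.349). With anti-semaphorin 4D alone all values lay between 3.50 and 3.91, below the limit.

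Lag3, a receptor of activated and chronically stimulated T cells and of NK cells, was above its limit everywhere. It was 8.12, 10.01 and 8.71 in treated combination tumors, against 6.93 and 7.12 in treated controls. The difference was 1.92 ± 0.45 (SE), 3.79-fold, with an adjusted p of 0.00665, which became 0.0526 without treated control 1. Untreated tumors had Lag3 at 7.56, 7.92 and 8.42 in the combination, against 6.88 and 7.75 in controls. There the groups overlapped, and the difference of 0.65 ± 0.45 (SE) did not pass (adjusted p = 0.31). The 8 samples of the single-agent arms lay between 6.69 and 7.37, and the 4 controls between 6.88 and 7.75, so the ranges overlapped.

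Ctla4 was the dimmest member. It was 4.99, 8.54 and 6.21 in treated combination tumors, of which 8.54 and 6.21 were above the limit, against 2.81 and 3.40 in treated controls. The fitted difference was 3.48 ± 0.84 (SE; adjusted p = 0.0074), at least 2.63-fold, and the adjusted p became 0.0645 without treated control 1. Its untreated-tumor values were 4.22, 4.91 and 5.24 in the combination, against 1.00 and 3.13 in controls. All 5 were below the limit, so no fold is given, and the fitted difference of 2.73 ± 0.84 (SE; adjusted p = 0.0459) turned to -0.28 once values below the limit were set to it. That call was also lost in 13 of 18 fits that each left out 1 sample. Ctla4 lay between 1.00 and 4.39 in the single-agent arms, below the limit in each sample.

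**Figure D1:**
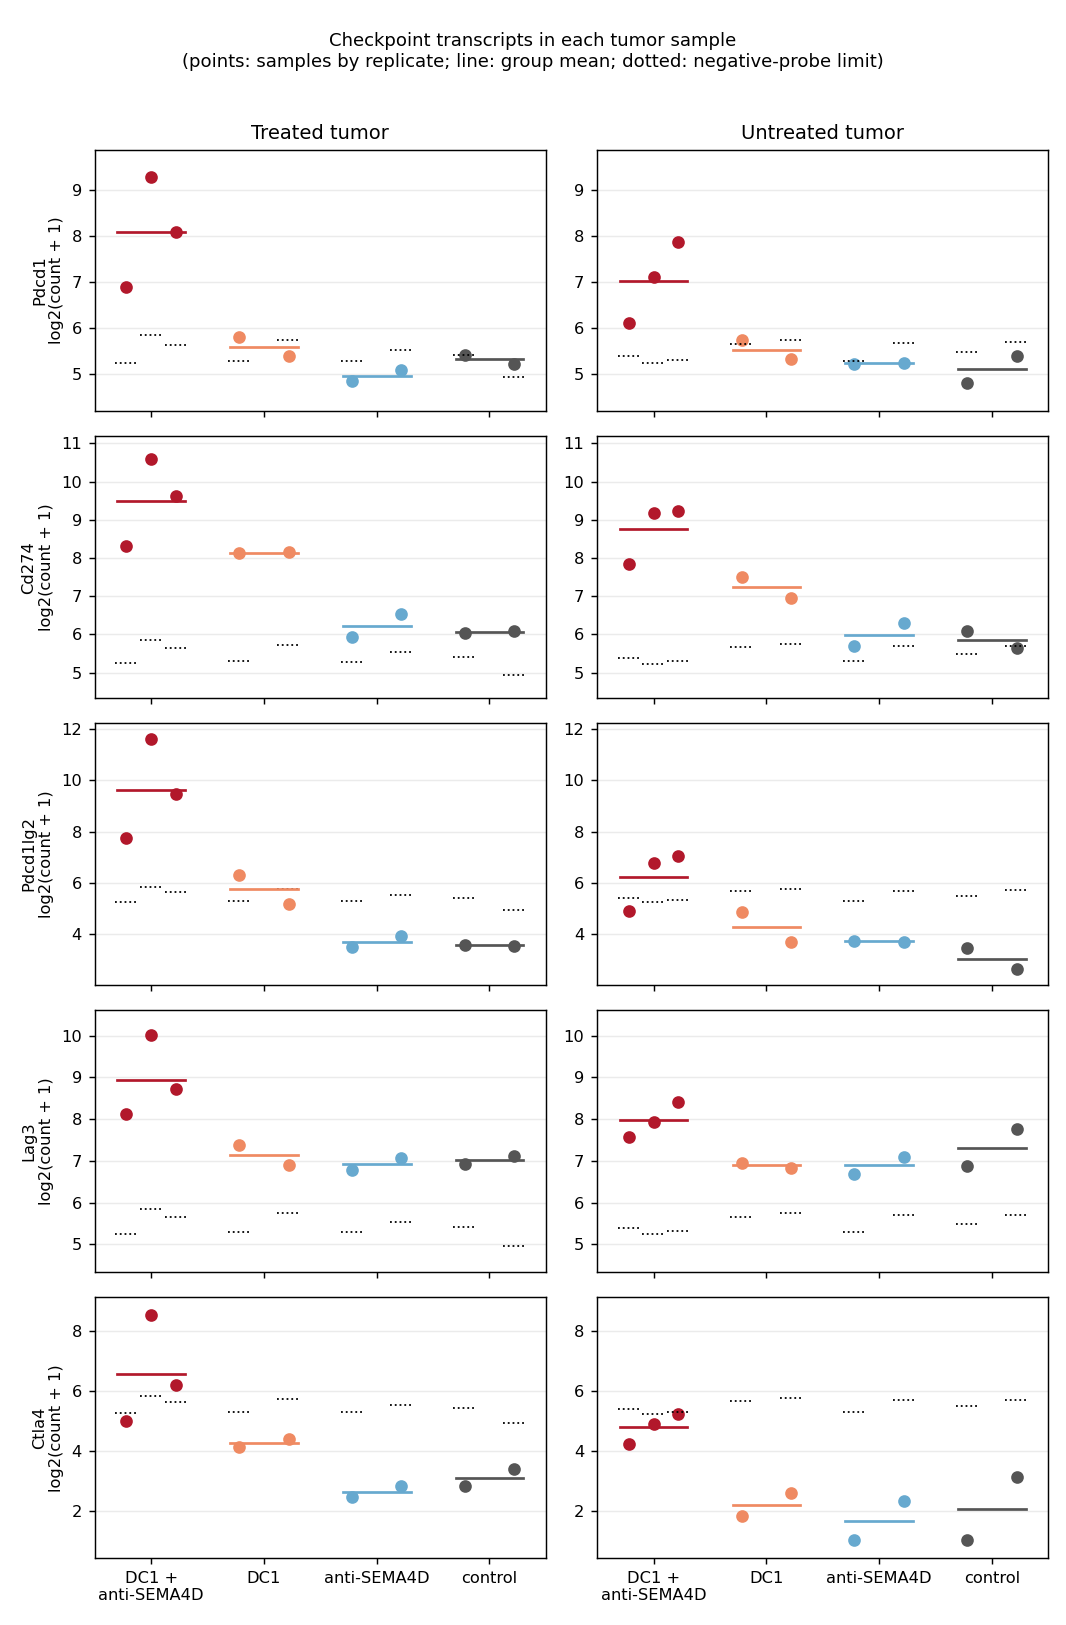
Level of each checkpoint transcript, log2(count + 1), in the 18 samples by arm, with treated tumors on the left and untreated tumors on the right; points are samples in replicate order, lines are group means and dotted marks are each sample's negative-probe limit. Combination samples lie above all others of the same kind of tumor in every panel except Lag3 in untreated tumors, where 2 of 3 do, and Ctla4 and Pdcd1lg2 sit under the limit in all control and antibody samples.

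Set against controls, all 5 members rose with the combination in the treated tumor, where 35.4% of the panel was called higher (38.8% in either direction), and their median difference was 3.43, beside 0.54 over the panel. In the untreated tumor 4 rose, Lag3 being the exception, where 15.8% of the panel was called higher (16.8% in either direction), with medians of 2.73 for the members and 0.45 for the panel. In the 12 scaled columns alone, which hold 1 control per kind of tumor, none of these calls was kept, with adjusted p between 0.101 and 0.143 in the treated tumor and between 0.0841 and 0.378 in the untreated tumor. Without untreated control 2 all 4 untreated calls were lost. Against anti-semaphorin 4D alone, the combination was higher for all 5 in the treated tumor, where 34.5% of the panel was called higher (36.8% in either direction), and for Cd274 (2.76 ± 0.55, SE; adjusted p = 0.0106) and Ctla4 in the untreated tumor, where 12.1% was. Ctla4 was below the limit in both of those untreated groups. Both untreated calls were lost without antibody sample 1 or 2 or combination sample 2, and that of Ctla4 also without combination sample 3, with adjusted p between 0.0514 and 0.291. The treated call of Lag3 was lost without treated antibody sample 1 (adjusted p = 0.0544) and in a fit of only the groups compared (0.0574). That of Ctla4, whose antibody samples were both below the limit, was lost with such values set to the limit (1.26, adjusted p = 0.13) or to the limit as deposited (1.11, adjusted p = 0.251). In the scaled columns alone no call against the antibody was kept in either kind of tumor. In the treated tumor the combination samples exceeded all 6 samples of the other arms for all 5 members, as they did for 25.7% of panel genes. In the untreated tumor they did so for 4, as for 18.1% of panel genes, and for Lag3 in 2 of 3 samples.

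Neither single agent changed any member past the threshold. Against controls, 0 panel genes were called higher (0%) for DC1 or for anti-semaphorin 4D in either kind of tumor by limma. At an unadjusted p under 0.05 there were 109 panel genes for DC1 in the treated tumor and 70 in the untreated tumor, and 11 and 25 for anti-semaphorin 4D. Of the members, Cd274 and Pdcd1lg2 were among those for DC1 in the treated tumor and Cd274 in the untreated tumor, and no member was for anti-semaphorin 4D. These comparisons share their control samples with those of the combination.

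Against DC1 alone, the combination was higher for Pdcd1 and Pdcd1lg2 in the treated tumor, where 1.69% of the panel was called higher (1.82% in either direction). Pdcd1 differed by 2.48 ± 0.57 (SE), 5.58-fold, and Pdcd1lg2 by 3.86 ± 0.89 (SE), 14.5-fold, both at an adjusted p of 0.0472. The second DC1 sample was below its limit for both genes, so these folds rest in part on an unmeasured level. These calls sat at the threshold: that of Pdcd1 was lost in 15 and that of Pdcd1lg2 in 16 of 18 fits that each left out 1 sample, with an adjusted p for both of 0.163 without treated combination 2 and 0.313 without treated DC1 2. Lag3 (1.81 ± 0.45, SE; adjusted p = 0.0542), Ctla4 (2.31 ± 0.84; 0.102) and Cd274 (1.36 ± 0.55; 0.13) did not pass. Without treated combination 1, in contrast, all 5 were called. Between untreated tumors no panel gene was called by limma (0%), with 136 at an unadjusted p under 0.05. All 5 members were among these, with differences of 1.49 for Pdcd1, 1.52 for Cd274, 1.97 for Pdcd1lg2 and 1.07 for Lag3. Ctla4 was below the limit in both groups, and its fitted difference of 2.59 turned to -0.39 with values set to the limit.

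Whether the combination exceeded the sum of the single-agent differences on the log2 scale was tested by an interaction term. It called 0 panel genes (0%) by limma in either kind of tumor, with 69 at an unadjusted p under 0.05 in the treated and 53 in the untreated tumor. Of the members, 4 were among the 69, all but Cd274, and 2 were among the 53, Lag3 and Ctla4.

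In the combination arm the treated tumor had more Pdcd1lg2 than the untreated tumor, with no overlap of samples. The difference was 3.37 ± 0.80 (SE), 10.3-fold, with an adjusted p of 0.0241, in a comparison that called 8.33% of the panel higher (9.11% in either direction). It became 0.111 without treated combination 2, 0.0933 without untreated combination 1 and 0.0599 without untreated combination 2. The other 4 members differed by 1.06 for Pdcd1, 0.75 for Cd274, 0.98 for Lag3 and 1.79 for Ctla4, all with overlapping samples, and did not pass (adjusted p between 0.125 and 0.332). Without treated combination 1 these 4 were called as well. No other arm had a gene called between kinds of tumor (0% each), with 100, 14 and 50 panel genes at an unadjusted p under 0.05 for DC1, anti-semaphorin 4D and control. When the difference between combination and control was itself compared between kinds of tumor, limma called no panel gene (0%; 81 at an unadjusted p under 0.05). For Pdcd1lg2 this second-order difference was 2.86 ± 1.26 (SE; 95% interval 0.13 to 5.58; adjusted p = 0.448). With so few samples per group, the lack of calls does not show that the kinds of tumor responded alike.

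In the treated tumor 9 of 12 measured T cell markers rose with the combination, where 35.4% of the panel did, and their summed counts were 1032 to 3229 in the combination, against 365 to 378 in controls. Of the 12, 2 rose in untreated tumors, a share near the 15.8% of the panel, with sums of 464 to 934 in the combination, against 373 to 454 in controls. Of all 12, 10 exceeded the limit in each treated combination sample, against 2 to 4 in treated controls, where Lat stood at 1.00. Cd8a and Cd8b1 were below the limit in all 18 samples.

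**Figure D2:**
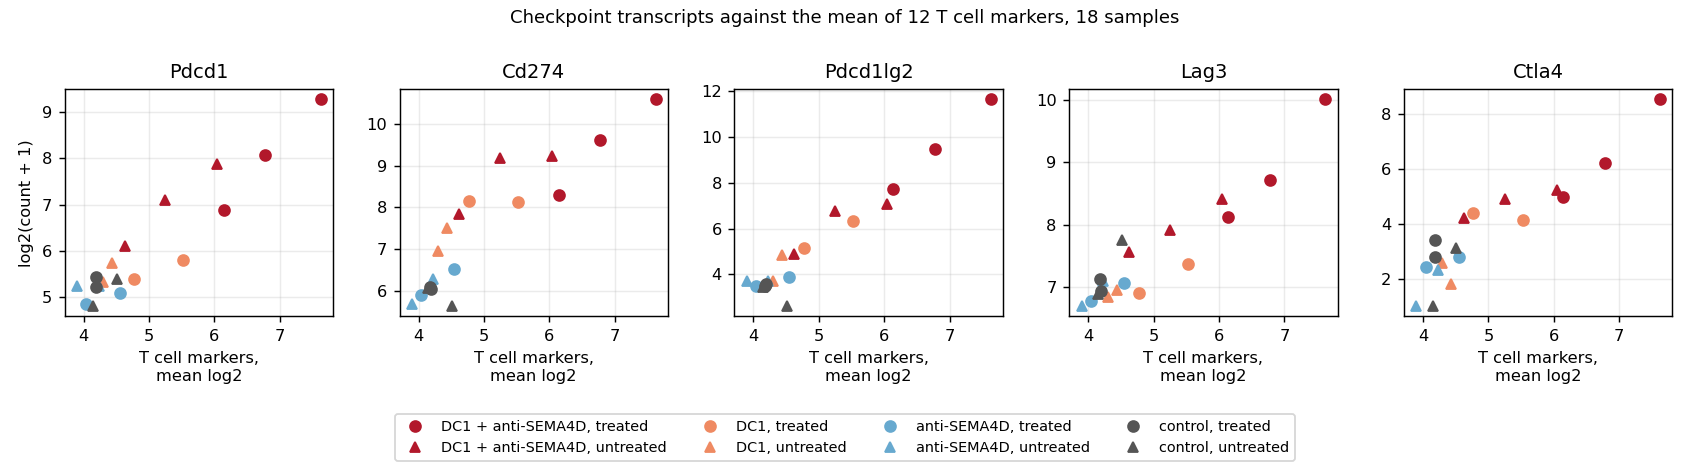
Level of each checkpoint transcript, log2(count + 1), against the mean log2 level of the 12 measured T cell markers in the 18 samples, with circles for treated and triangles for untreated tumors and colors for arms. Combination samples lie toward the upper right of each panel, and the treated DC1 samples, at 8.13 and 8.15 for Cd274, lie above every control there, with mean T cell marker levels of 5.52 and 4.77.

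Expressed relative to the mean of these T cell markers, the members separated. In the treated tumor Pdcd1lg2 was still 3.39 ± 0.58 (SE) higher with the combination than in controls (adjusted p = 4.63e-05), in a fit that called 1.3% of the panel higher. Pdcd1 differed by 0.10 ± 0.46 (SE; 95% interval -0.83 to 1.03; adjusted p = 0.841) and Lag3 by -0.74 ± 0.45 (SE; adjusted p = 0.122), and Cd274 and Ctla4 by 0.77 and 0.81, none of which passed. In untreated tumors both ligands passed, Cd274 at 1.91 ± 0.48 (SE; adjusted p = 0.0277) and Pdcd1lg2 at 2.22 ± 0.58 (SE; adjusted p = 0.0321). The 3 receptors did not, and this fit called 0.911% of the panel higher. Neither of these panel shares counts genes called lower. Many of the markers were under the limit in controls, as were Pdcd1lg2 and Ctla4. The size of the markers' own change, and with it of these relative differences, is therefore uncertain, and the direction of the error was not tested.

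The same was done relative to Ptprc, the pan-leukocyte antigen CD45 and the 1 of 4 listed leukocyte markers on the panel. In the treated tumor Pdcd1lg2 passed (3.54 ± 0.57, SE; adjusted p = 0.00027), in a fit that called 1.56% of the panel higher. Cd274 did not pass there (0.92 ± 0.45, SE; adjusted p = 0.0664). The adjusted p of Cd274 was 0.0491 with Ptprc itself kept among the genes tested, and leaving it out was chosen after both fits were seen. In the untreated tumor Cd274 (1.61 ± 0.45, SE; adjusted p = 0.0301) and Pdcd1lg2 (1.92 ± 0.57, SE; adjusted p = 0.0346) passed, where 0.782% of the panel was called higher. Neither share counts genes called lower, and under the alternatives panel calls in either direction reached 650 treated and 198 untreated. Pdcd1, Lag3 and Ctla4 did not pass on this scale in either kind of tumor.

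**Figure D3:**
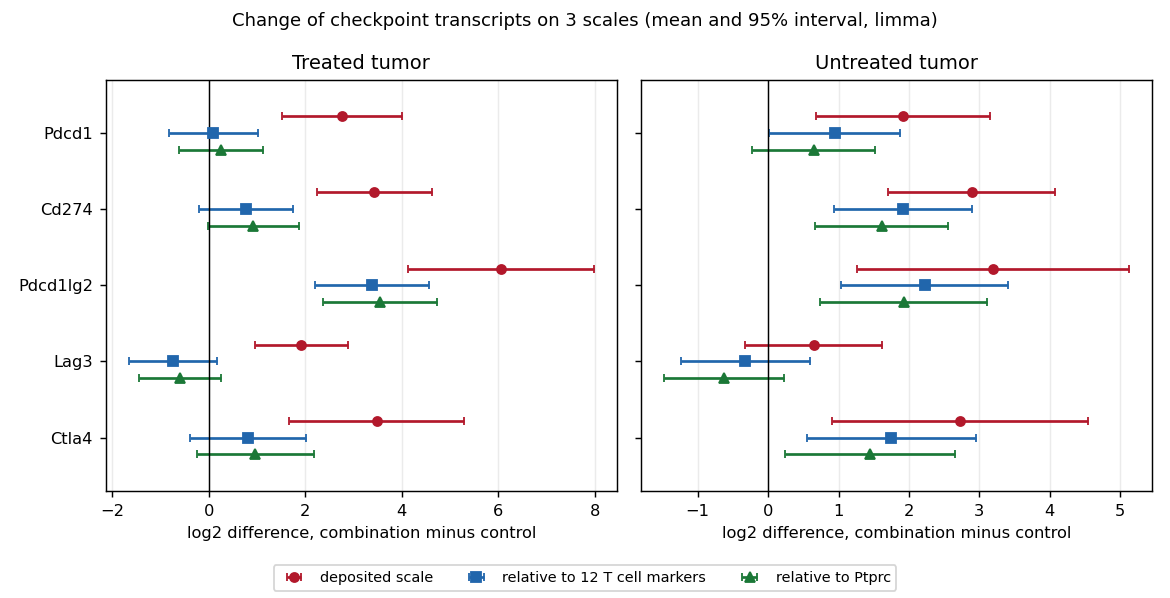
Log2 difference between combination and control for each checkpoint transcript, in treated tumors on the left and untreated tumors on the right; symbols are limma estimates and bars 95% intervals, on the deposited scale, relative to 12 T cell markers and relative to Ptprc. On the deposited scale all 5 treated intervals lie above 0, whereas relative to T cell markers Pdcd1 (0.10) and Lag3 (-0.74) have intervals that include 0 and Pdcd1lg2 (3.39) does not.

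Markers of other cells were counted in the same comparison, which called 35.4% of the panel higher in the treated and 15.8% in the untreated tumor. Counts near these shares, such as 1 of 3 or 1 of 7, do not set a cell type apart from the panel. Of markers of NK and cytotoxic cells, 6 of 7 rose in the treated and 1 of 7 in the untreated tumor, and of macrophage and monocyte markers, 3 of 5 and 0 of 5. Their summed counts in the treated tumor were 1102 to 5849 in the combination, against 360 to 373 in controls, for NK and cytotoxic cells, and 7826 to 11914 in the combination, against 5532 to 7119 in controls, for macrophages and monocytes. The 1 dendritic cell marker measured of 9 listed did not pass in either kind of tumor. In the treated and untreated tumor in turn, 2 and 0 of 2 regulatory T cell markers rose, 1 and 0 of 3 for B cells, 1 and 0 of 3 for neutrophils and mast cells, 1 and 0 of 1 for endothelium, and 3 and 1 of 3 for fibroblasts. Only 1 of the 2 regulatory T cell markers exceeded the limit in any treated combination or control sample, so the other call rests on unmeasured levels. How much of the members' change these cells carry was not tested.

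The other inhibitory molecules measured were 3 of 21 listed. Beside the counts in this paragraph, 35.4% of the panel was called higher in the treated and 15.8% in the untreated tumor. The 1 of 3 inhibitory molecules that rose in the treated tumor is near that share. Tigit, a receptor on T and NK cells, rose in the treated tumor by 1.94 ± 0.60 (SE), at least 1.22-fold (adjusted p = 0.0233), and Cd276, a B7-family molecule known as B7-H3, in the untreated tumor by 0.79 ± 0.25 (SE; adjusted p = 0.0498). The remaining one did not pass in either. Both measured partners of CTLA-4 rose in the treated tumor, Cd28, the stimulatory receptor that shares its ligands, by 4.08 ± 0.69 (SE; at least 4.63-fold, adjusted p = 0.00194) and Icos, a related receptor, by 3.86 ± 0.67 (SE; at least 5.67-fold, adjusted p = 0.00194). Neither passed in the untreated tumor. Among 5 ligands and partners of LAG-3, 4 rose in the treated tumor, the MHC class II genes H2-Aa and H2-Eb1, the class II loading factor H2-DMa, and Cd4. H2-Eb1 (1.90 ± 0.53, SE) and H2-DMa (2.03 ± 0.57, SE) also rose in the untreated tumor, both at an adjusted p of 0.0324.

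The T cell receptor machinery that PD-1 signaling restrains was represented by 10 genes, 8 of which are also among the T cell markers counted above. Panel shares called higher were again 35.4% in the treated and 15.8% in the untreated tumor, and 2 of 10 is near the latter. In the treated tumor 9 rose, with a list median of 2.37 beside the panel's 0.54, among them the adaptor Lat (5.74 ± 0.64, SE; at least 2.95-fold, adjusted p = 0.000301), Lck, the kinase that starts receptor signaling (2.37 ± 0.43, SE; adjusted p = 0.00212), and the kinase Zap70 (3.93 ± 0.55, SE; at least 3.02-fold, adjusted p = 0.000856). In the untreated tumor 2 rose, Zap70 (1.74 ± 0.55, SE; adjusted p = 0.0498) and Lat (3.08 ± 0.64, SE; adjusted p = 0.0108), with a median of 0.68 beside 0.45. Zap70 and Lat are among the 12 T cell markers, of which 1 to 3 exceeded the limit in untreated controls. In untreated combination samples 3 to 10 did, so these fitted differences may rest in part on unmeasured levels. Of 14 genes listed under T cell dysfunction, 4 were measured. Eomes, Tbx21 and Nt5e of these rose in the treated tumor and none in the untreated tumor. The heading is only a label, and whether T cells were dysfunctional was not tested.

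Inducers of the PD-1 ligands were measured for 14 genes, of which 9 rose in the treated and 6 in the untreated tumor, where 35.4% and 15.8% of the panel did. The list medians were 1.04 and 0.55, beside panel medians of 0.54 and 0.45. The NF-kB subunit Nfkb2 rose by 2.06 ± 0.34 (SE; adjusted p = 0.00185) in the treated and 1.82 ± 0.34 (SE; adjusted p = 0.00819) in the untreated tumor. Rela, another NF-kB subunit, and the cytokine Tnf rose in both kinds of tumor too. Ifng, named after its values were seen, was below the limit in all combination and control samples.

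Across the 18 samples the 2 ligands followed each other, with a Pearson correlation of 0.938, and of 0.909 in the 12 samples outside the combination. Pdcd1 and Lag3 had 0.952 over all samples and 0.389 outside the combination. Samples fall into arms, share the scaling of their columns and are often below the limit, so these are descriptions.

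**Figure D4:**
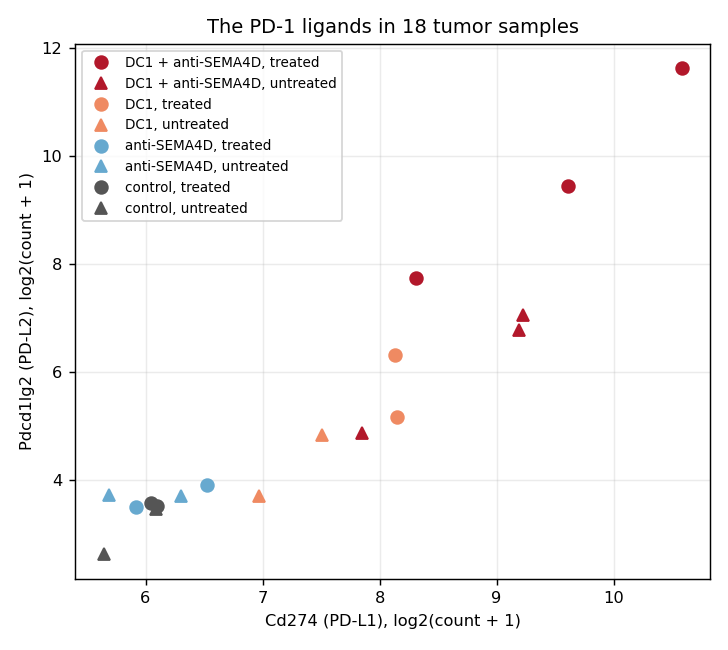
Pdcd1lg2 (PD-L2) against Cd274 (PD-L1), both log2(count + 1), in the 18 samples, with circles for treated and triangles for untreated tumors and colors for arms. Treated combination samples reach 11.63 for Pdcd1lg2 and 10.58 for Cd274, DC1 samples lie between 6.97 and 8.15 for Cd274, and control and antibody samples reach at most 6.52 for Cd274 and 3.91 for Pdcd1lg2.

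The panel genes most like each member by Pearson correlation over 18 samples, among genes above the limit in at least 9, differed between members. For Pdcd1 they were the leukocyte integrin Itgb2 (0.956), Traf1 (0.953), Lag3 (0.952), H2-Eb1 (0.952) and Lck (0.949). For Cd274 they were Nfkb2 (0.979), H2-M3 (0.972), Pgd (0.972), Sod2 (0.969) and Kmt2a (0.965). Those of Pdcd1lg2 were Lck (0.976), Traf1 (0.969), Ptprc (0.969), Itgb2 (0.967) and Ptges (0.961), and those of Lag3 were Pdcd1 (0.952), Itgb2 (0.948), Cmklr1 (0.930) and Lck (0.930). Ctla4 was most like Pdgfb (0.957), Ampd3 (0.939), Traf1 (0.931), Cd180 (0.926) and Itgb2 (0.926). Lists for Pdcd1, Pdcd1lg2 and Lag3 shared Itgb2 and Lck, and that of Cd274 shared no gene with the others.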

How the data were processed

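RNA of 18 tumor samples was counted for 782 probes, of which 768 were panel genes, 8 negative and 6 positive controls. The authors deposited log2 values, and limma is the one tool that the submitters' processing notes name, with its role and version not given in the sources used here. Read from the values, they are log2(count + 1), with panel counts multiplied by 1 factor per sample (0.736 to 2.58) in 12 columns and whole numbers in 6, for which it is not settled whether these are raw or rounded scaled counts. Control probes were unscaled, so the limit was multiplied by the sample's factor.

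The deposited values were fitted in limma 3.58.1 (R 4.3.3), with 8 group means, no covariate, 10 residual and 3.02 prior degrees of freedom and Benjamini-Hochberg adjustment over 768 genes in each of 17 comparisons. A group below the limit in every sample has only a bound, so "at least N-fold" sets the brighter mean against the mean of the dim group's limits or own values, whichever was higher. The size of a dim gene's change is uncertain on this scale. Tables and figures used Python 3.11.15, numpy 2.4.6, pandas 2.3.3, scipy 1.17.1 and matplotlib 3.10.9. Tested on simulated data for treated combination minus treated control (768 genes, 200 changed), the fit recovered 60.2%, 90.2%, 98.9% and 99.2% of log2 changes of 1, 2, 3 and 4. The simulated noise was normal, independent between genes and of equal spread in all groups. In the data the spread was unequal, with an SD of 1.95 for Pdcd1lg2 in treated combination and 0.046 in treated control. These shares therefore do not give the power of the real comparison. Same-numbered treated and untreated samples had correlated deviations of 0.36, -0.06 and 0.02 in the combination, 0.52 in DC1, 0.17 in anti-semaphorin 4D and -0.07 in control, so the numbers were not taken to pair samples. Within groups, replicates differed by more than counting error.

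Members, gene lists and named genes were chosen with earlier results of these data known. Like genes were the 5 highest correlations per member, and from each list at most 4 genes above the limit in a compared group, those of smallest p, were open to naming. Not every gene chosen this way is reported here. Ptprc was left out of the fit relative to itself, where its values are constant.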

Additional observations from a re-analysis of the deposited data

Results flagged for a closer look

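Pdcd1 with anti-semaphorin 4D alone lay below both controls in both treated tumor samples and above the mean of the controls in both untreated tumor samples. The difference between antibody and control was -0.35 in the treated and 0.14 in the untreated tumor, so the contrast between kinds of tumor was -0.48 on the log2 scale. It was flagged because the samples moved in opposite directions, and the difference was not tested on its own. All 4 antibody samples were below their limits.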

How the results depend on the processing

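Each comparison was refitted under 13 alternatives and with each of 18 samples left out, 3 of the alternatives (both on the kind of column, and the limit as deposited) chosen after seeing the data. Values are log2 differences, or counts of the 5 members called, of combination minus control unless said otherwise. Relative to T cell markers, counts were 1 in the treated and 2 in the untreated tumor, with Pdcd1 0.10, Cd274 0.77, Lag3 -0.74 and Ctla4 0.81 in the treated, and Pdcd1 0.94, Lag3 -0.33 and Ctla4 1.75 in the untreated tumor. The count against treated DC1 was 1, and against the antibody 2 treated and 0 untreated. Signs turned for DC1 minus control in the treated tumor (Pdcd1 -0.68, Lag3 -0.85), against DC1 (Cd274 -0.34), against the antibody (Lag3 -0.53 treated, -0.17 untreated) and for treated minus untreated combination tumors (Pdcd1 -0.49, Cd274 -0.80, Lag3 -0.56). Relative to Ptprc, counts were 1 and 2, with Pdcd1 0.25, Cd274 0.92, Lag3 -0.59 and Ctla4 0.97 treated, and Pdcd1 0.65, Lag3 -0.62 and Ctla4 1.45 untreated, and counts against the antibody were 2 treated and 0 untreated. Signs turned there for DC1 minus control (treated Pdcd1 -0.85 and Lag3 -1.02, untreated Pdcd1 -0.30 and Ctla4 -0.60), against DC1 (treated Cd274 -0.017), against the antibody (Lag3 -0.36 treated, -0.27 untreated) and for treated minus untreated combination tumors (Pdcd1 -0.15, Cd274 -0.45, Lag3 -0.22). Both scales remove a change that T cells or leukocytes share.

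Centred on the sample median, the count against DC1 was 0 in the treated tumor, and untreated counts were 1 against control (Pdcd1 1.45, Pdcd1lg2 2.72 and Ctla4 2.25 lost) and 1 against the antibody. DC1 minus control turned to -0.14 for Pdcd1 and -0.31 for Lag3 in the treated and -0.089 for Ctla4 in the untreated tumor. With only the groups compared, which leaves fewer samples, counts were 3 treated (Lag3 1.92 and Ctla4 3.48 lost) and 0 untreated (Pdcd1 1.92, Cd274 2.89, Pdcd1lg2 3.2, Ctla4 2.73), 0 against DC1, 0 against the antibody in the untreated tumor and 0 between kinds of tumor. In the 12 scaled columns alone, which leave 1 control sample a kind, assumed to vary like the other groups, no member was called: Pdcd1 2.87, Cd274 3.40, Pdcd1lg2 6.09, Lag3 1.83 and Ctla4 3.18 treated, and Pdcd1 1.62, Cd274 3.11, Pdcd1lg2 3.62 and Ctla4 1.66 untreated, with 0 also against DC1, against the antibody in both kinds and between kinds, and -1.32 for Ctla4 with DC1 in the untreated tumor. Blocking on the kind of column, the count against DC1 was 0.

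At a pseudocount of 16, untreated counts were 2 against control (Pdcd1lg2 2.00, Ctla4 1.10) and 1 against the antibody, and Ctla4 with DC1 was -0.027. With values below the limit set to it, Ctla4 was 1.49 in the treated tumor and not called, untreated counts were 1 against control (Pdcd1 1.43, Pdcd1lg2 0.81, Ctla4 -0.28) and 1 against the antibody (Ctla4 -0.18), and Ctla4 against untreated DC1 was -0.39. With the limit as deposited, Ctla4 was 1.53 treated, untreated counts were 1 (Pdcd1 1.58, Pdcd1lg2 1.49, Ctla4 0.26) and 1 against the antibody (Ctla4 -0.35), and the treated count against DC1 was 0. With the replicate block, the count against DC1 was 0 and that in the untreated tumor 2 (Pdcd1 1.71 and Pdcd1lg2 3.03 lost). The cause of these changes was not tested beyond how each was built.

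With 1 sample left out in turn, the count called was 3 to 5 of 5 in the treated tumor and 0 to 4 in the untreated tumor, 0 to 5 against treated DC1, 4 to 5 and 0 to 5 against treated and untreated antibody, and 0 to 5 between kinds of tumor. In the treated tumor the difference ran between 2.16 and 3.36 for Pdcd1, 2.89 and 4.02 for Cd274, 5.04 and 6.99 for Pdcd1lg2, 1.39 and 2.34 for Lag3 and 2.50 and 4.27 for Ctla4. In the untreated tumor it ran between 1.5 and 2.38 for Pdcd1, 2.65 and 3.34 for Cd274, 2.78 and 3.88 for Pdcd1lg2, 0.22 and 1.08 for Lag3 and 1.66 and 3.79 for Ctla4. DC1 minus control ran between -0.12 and 0.34 for treated Lag3, -0.86 and 0.012 for untreated Lag3 and -0.93 and 1.20 for untreated Ctla4. Panel calls, 298 treated and 129 untreated as reported, ran between 132 and 334 treated and 1 and 171 untreated, and under the alternatives between 0 and 650 treated and 4 and 198 untreated. The filter on low genes removed Ctla4, which has no value there.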
